A study of Mus musculus with 3 samples.

Results

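The genes described here encode heterotrimeric G proteins and the regulators of G protein signalling (RGS proteins) that switch them off. They were chosen by symbol: the genes of the alpha subunits other than the stimulatory subunit gene Gnas, the beta subunits Gnb1 to Gnb5, all gamma subunits, and all but 1 of the numbered Rgs genes. The rule found 52 members among the 46073 genes of the table, namely 15 alpha, 5 beta and 12 gamma subunit genes and 20 Rgs genes, and all 52 are annotated as protein coding. Their RNA was measured in the medial prefrontal cortex (mPFC), a frontal cortical region, of naïve C57BL/6 mice aged 3 months. The series holds 3 samples of this tissue, 1 each of RNA, of DNA enriched with an antibody to methylated cytosine and of input DNA, and the RNA sample is the one used here. No treatment, mutant or second condition is given.

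A heterotrimeric G protein couples a receptor in the cell membrane to enzymes and channels inside the cell. An activated receptor makes the alpha subunit exchange GDP for GTP, after which alpha and the beta-gamma dimer act on separate effectors. RGS proteins speed up GTP hydrolysis by alpha and so shorten the signal. In cortical neurons these proteins carry the signals of the metabotropic glutamate, GABA-B, muscarinic, monoamine, opioid and cannabinoid receptors.

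RNA levels are in FPKM, read fragments scaled to transcript length and to the number of mapped fragments, which allows genes to be ranked within the sample. The table has 1 value per gene and no replicates, so no value has an error, and a difference between genes is a ratio of 2 values with no replicate check. The sequencing depth is unknown, and no counting interval or detection limit is given. A gene is called detected at 1 FPKM or more. In bulk tissue, fewer cells of a type and less RNA per cell cannot be told apart. Neuron markers were at 80.0 to 1279 FPKM, astrocyte markers at 14.6 to 184 FPKM, oligodendrocyte markers at 30.8 to 912 FPKM and microglia markers at 7.66 to 39.0 FPKM, which goes with the labelled tissue.

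Of the 52 members, 40 (76.9%) were detected, beside 31.5% of all genes in the table and 58.6% of protein-coding genes. At 10 FPKM or more there were 30 members, beside 14.6% of all genes and 29.1% of protein-coding genes. At 100 FPKM or more there were 3, namely Gnao1, Gnb2 and Gnb1, beside 1.57% of all genes and 2.82% of protein-coding genes. The median of all 52 members was 13.8 FPKM, against 2.58 FPKM for protein-coding genes. Just above the chosen floor of 1 FPKM stood Gna15 at 1.02 FPKM and just below it Gng8 at 0.793 FPKM. Gnat3 and Rgs21 were listed at 0, which can be a failed estimate, and the other 10 undetected members lay between 0.0368 and 0.793 FPKM.

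**Figure D1:**
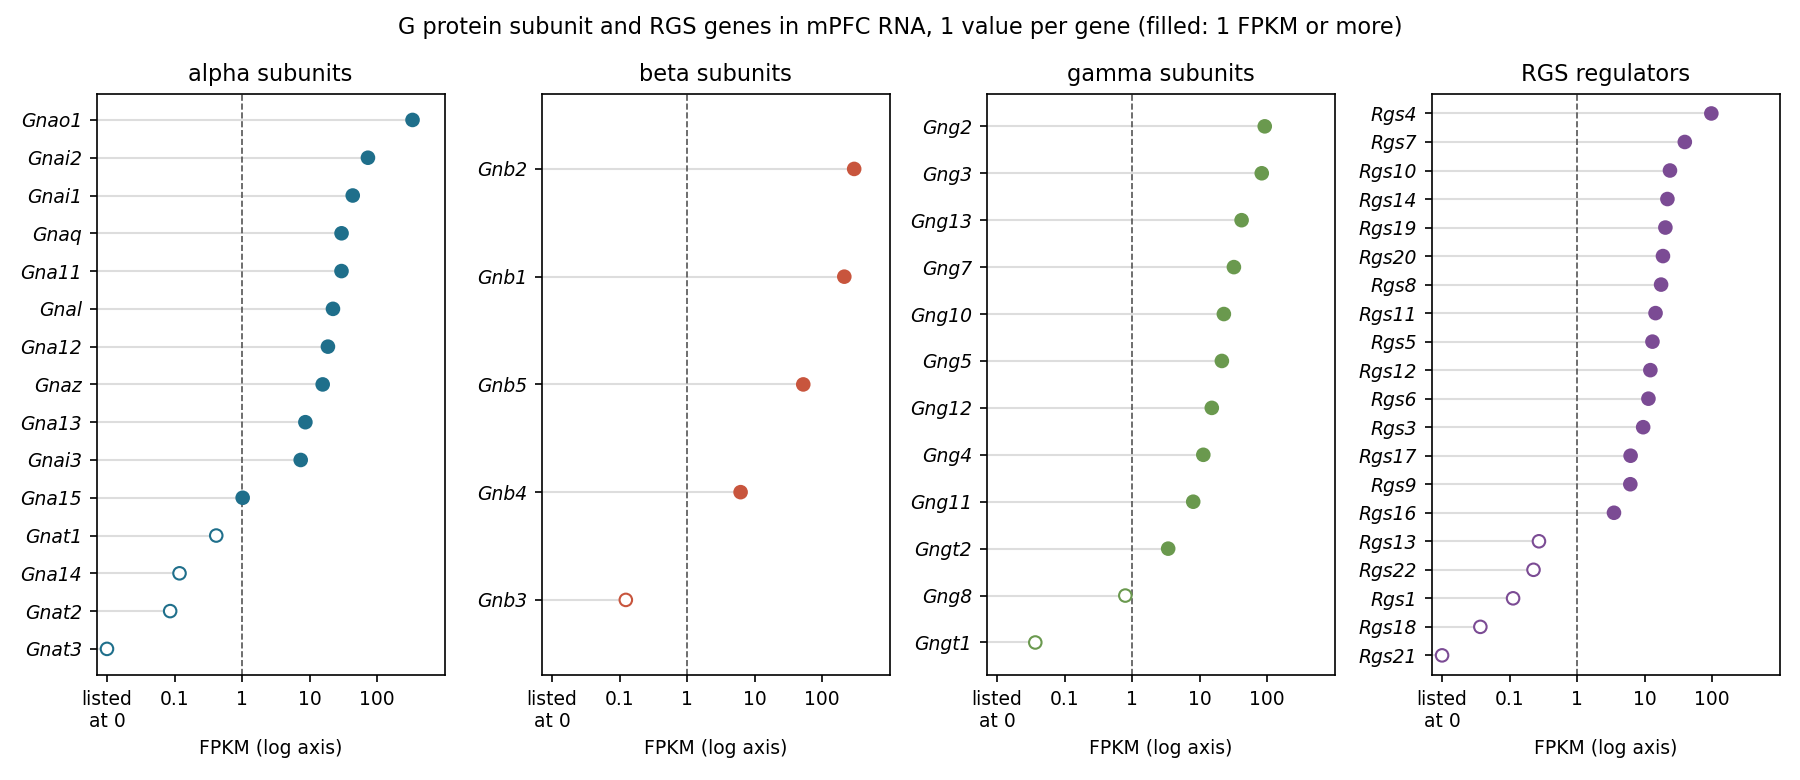
FPKM (log axis) of every alpha, beta, gamma and Rgs gene in mPFC RNA, 1 point per gene, with a dashed line at 1 FPKM and genes listed at 0 placed at the left edge. Gnao1, Gnb2 and Gnb1 stand above 100 FPKM, and 12 members lie left of the line.

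The inhibitory (i/o) class made up most of the RNA of the alpha genes examined, which do not include Gnas. Its 5 genes were all detected and summed to 474 FPKM, 81.1% of the 585 FPKM of all alpha genes examined. Gnao1, which encodes the alpha-o subunit known for its abundance in brain, was at 334 FPKM and alone gave 57.2% of the alpha sum. It ranked 92nd of the 20631 genes matched as protein coding. The highest of these was at 2100 FPKM, against 62908 FPKM over all genes of the table. Gnai2 was at 73.1 FPKM, Gnai1 at 43.5, Gnaz at 15.6 and Gnai3 at 7.39 FPKM. The 3 Gnai genes encode closely related subunits that inhibit adenylyl cyclase, and Gnaz encodes a relative that pertussis toxin does not modify. Gnao1 was thus 4.57-fold above Gnai2 and 21.4-fold above Gnaz, while Gnai2 was 1.68-fold above Gnai1. Gnai3, the lowest of the class, was 5.90-fold below Gnai1. Gnao1 (GRCm38, chromosome 8, 93810153 to 93969388) and Gnai1 (chromosome 5, 18265135 to 18360413) are spread over 159 and 95.3 kb, and Gnai2 (chromosome 9, 107614125 to 107635391) over 21.3 kb.

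The other alpha classes examined, without Gnas, were at lower levels. The q class, whose subunits activate phospholipase C beta, summed to 60.6 FPKM, 7.83-fold below the i/o class. Gnaq (chromosome 19, 16132684 to 16388520) and Gna11 (chromosome 10, 81528724 to 81545162) were nearly equal, at 29.7 FPKM each with a ratio of 1.002. Their relatives Gna15, typical of blood cells, and Gna14 were at 1.02 and 0.119 FPKM. The 12/13 class, which acts on the actin cytoskeleton through small GTPases, summed to 27.4 FPKM, with Gna12 at 18.7 FPKM, 2.16-fold above Gna13 at 8.66 FPKM. Gnal, the stimulatory subunit of olfactory neurons and the striatum, was at 22.2 FPKM. Of 4 olfactory neuron markers only Adcy3, a cyclase of many tissues, was detected, at 10.4 FPKM, and the defining genes Omp and Cnga2 were at 0.0933 and 0.0503 FPKM. Of 5 striatal markers 3 were detected, namely Ppp1r1b, which cortical neurons also express, at 59.6 FPKM, Adora2a at 1.96 and Drd2 at 1.63 FPKM, while Six3 and Isl1 were at 0.272 and 0.0772 FPKM. Their part in the Gnal value was not tested. The transducin class was under 1 FPKM: Gnat1 of rods was at 0.415 FPKM, Gnat2 of cones at 0.0862 FPKM, and the taste cell subunit Gnat3 was listed at 0. With values rescaled without mitochondrial genes Gnat1 was at 1.05, just past the same floor. The 4 photoreceptor markers examined were between 0.0307 and 0.180 FPKM and the 4 taste cell markers between 0.0101 and 0.562 FPKM.

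Beta subunit RNA came mostly from a pair of genes. Gnb2 (chromosome 5, 137528127 to 137533449) was at 298 FPKM and Gnb1 (chromosome 4, 155491300 to 155559269) at 213 FPKM, and together they gave 89.7% of the beta sum of 569.5 FPKM. Gnb2 was 1.40-fold above Gnb1. They stood 117th and 198th among protein-coding genes. Gnb5, a divergent beta subunit that pairs with the R7 class of RGS proteins in place of a gamma subunit, was at 52.5 FPKM, 4.05-fold below Gnb1. Gnb4 was at 6.199 FPKM and Gnb3, the cone subunit, at 0.124 FPKM.

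The gamma subunits, small prenylated proteins that anchor the dimer in the membrane, had no single dominant gene. Gng2 (chromosome 14, 19872558 to 19977825) was at 92.0 FPKM and Gng3 (chromosome 19, 8836929 to 8839246) at 83.1 FPKM, a ratio of 1.11, and together they gave 52.8% of the gamma sum of 332 FPKM. Because Gng3 overlaps Bscl2, its value and this share are uncertain. Gng13, known from taste cells, followed at 41.8 FPKM, and Gng7, a partner of the olfactory and striatal alpha subunit, at 32.1 FPKM. Gng10 and Gng5, which are widely expressed, were at 22.8 and 21.3 FPKM. Gng12 was at 15.1, Gng4 at 11.3 and Gng11 at 8.03 FPKM. The cone gene Gngt2 was at 3.42 FPKM, 92.8-fold above the rod gene Gngt1 at 0.0368 FPKM. That ratio is rough, since Gngt2 overlaps Abi3 and Gngt1 is very low at an unknown depth. Gng8, typical of olfactory and vomeronasal neurons, was at 0.793 FPKM. From Gng13 down to Gng11 neighbours in this order differed by at most 1.41-fold, and Gng11 was 2.35-fold above Gngt2.

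Summed over their members, the beta genes were 1.72-fold above the gamma genes. The alpha genes examined, without the stimulatory gene left out by the rule, were 1.03-fold the beta genes. The Rgs genes summed to 315 FPKM, 0.539 of the alpha sum. These are sums of RNA levels per length and not amounts of protein.

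**Figure D2:**
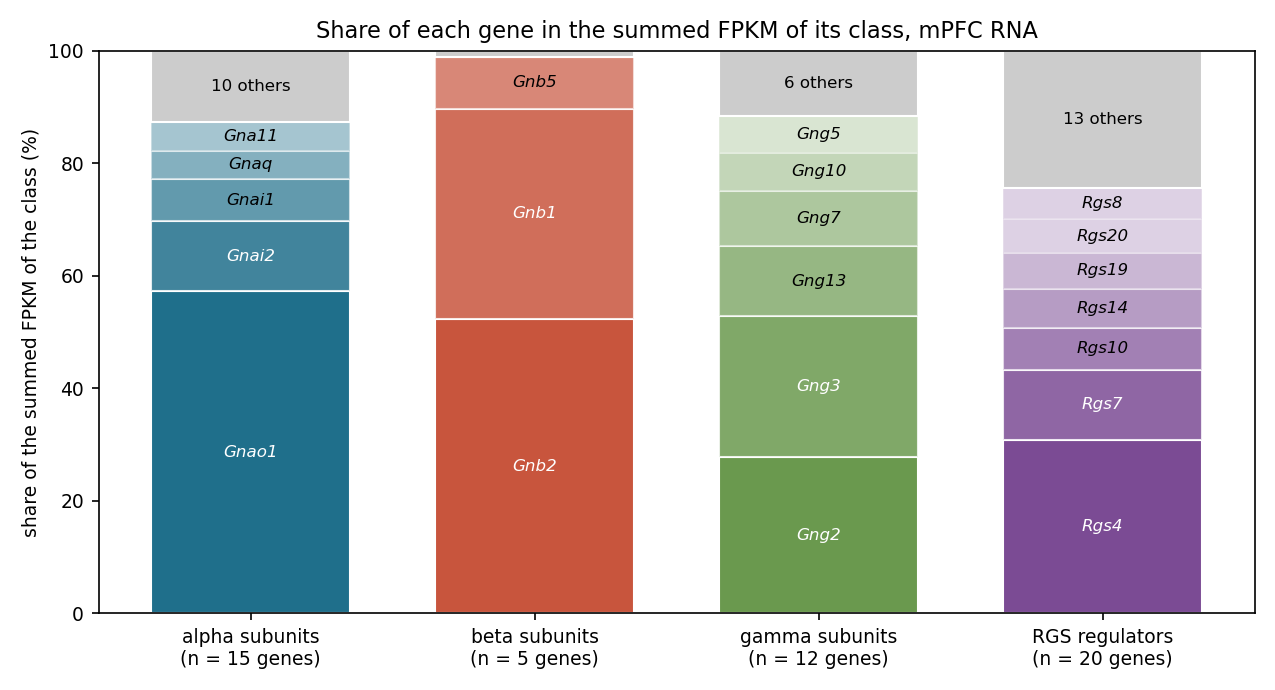
Share of each gene (%) in the summed FPKM of its class, for alpha, beta, gamma and Rgs genes in mPFC RNA, with genes under 5% joined in grey. Gnao1 holds 57.2% of the alpha sum and Gnb2 with Gnb1 89.7% of the beta sum, whereas Rgs4 holds 30.8% of the Rgs sum.

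Rgs4 led the regulators and most other detected Rgs genes lay close together. The median over all 20 genes was 11.8 FPKM, and 15 of them were detected, beside 58.6% of protein-coding genes. Rgs4 (chromosome 1, 169741477 to 169747642), a small R4 class protein that acts on i/o and q class subunits, was at 97.1 FPKM, 30.8% of the sum and 2.47-fold above Rgs7. Gnao1 was 3.45-fold above Rgs4. From Rgs10 at 23.7 FPKM to Rgs3 at 9.49 FPKM lay 10 genes, and neighbours among them differed by at most 1.21-fold. In that range the order of the genes rests on small differences that no replicate supports.

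The R4 class ranged from the highest Rgs gene to one listed at 0. Below Rgs4 came Rgs8 at 17.5, Rgs5 at 13.03, Rgs3 at 9.49 and Rgs16 at 3.51 FPKM, and Rgs4 was 27.6-fold above Rgs16. Rgs5 is a widely used marker of pericytes, and it stood 4.17-fold above the mural marker Pdgfrb at 3.13 FPKM. The other mural markers Vtn, Kcnj8 and Abcc9 were at 27.8, 1.11 and 0.734 FPKM, and the part of these cells in the Rgs5 value was not tested. Rgs13, Rgs1 and Rgs18, known from lymphocytes, mast cells and platelets, were at 0.272, 0.113 and 0.0369 FPKM, and the taste cell gene Rgs21 was listed at 0. Of the 6 leukocyte and platelet markers 4 were undetected, and the platelet genes Itga2b and Pf4 were at 2.18 and 1.99 FPKM.

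All members of the other 3 named classes were detected, beside 58.6% of protein-coding genes. In the R7 class, whose proteins bind Gnb5 and act on i/o alpha subunits, Rgs7 (chromosome 1, 175059076 to 175492862) was highest at 39.3 FPKM. Rgs11 was at 14.5, Rgs6 at 11.4 and Rgs9, the form of photoreceptors and striatum, at 6.13 FPKM. Rgs7 was 3.46-fold above Rgs6 and 6.41-fold above Rgs9, and Rgs11 was 2.36-fold above Rgs9. The 4 genes summed to 71.3 FPKM, 1.36 times their partner Gnb5. In the R12 class Rgs10, expressed in microglia and neurons, was at 23.7 FPKM, Rgs14, known from hippocampal area CA2, at 21.7 FPKM and Rgs12 at 12.1 FPKM. Rgs12 and Rgs14 are scaffolds that also bind Ras and inactive alpha subunits, and Rgs14 was 1.79-fold above Rgs12. In the RZ class, which includes regulators of the Gnaz product, Rgs19 and Rgs20 were at 20.3 and 18.7 FPKM, a ratio of 1.09, and Rgs20 was 3.01-fold above Rgs17 at 6.19 FPKM. Rgs22, a long testis protein outside these classes, was at 0.226 FPKM.

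Of the 26 gene pairs compared, 18 were apart, meaning that log2(FPKM + 1) differed by 1 or more, which is 2-fold on that scale. The gene written first was higher in 16 of them and the second in 2. This order was set when the pairs were chosen, with earlier results known, so the split is not a result. Adding 1 shrinks the difference of pairs with a low gene. Among 19 pairs of paralogs 11 were apart. By the same measure 58.1% of pairs of consecutive protein-coding genes within 50 kb were apart. Those background pairs are of any level and were not chosen as paralogs, so the 2 sets are unlike. The paralog count is thus a description of the pairs chosen. The closest paralogs were Gnaq and Gna11, Rgs19 and Rgs20, and Rgs10 and Rgs14, with ratios of 1.002, 1.09 and 1.09.

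Genes that lie close to each other in the genome were apart in all 7 pairs examined, beside 58.1% of 13707 pairs of consecutive protein-coding genes up to 50 kb apart. Unlike the background pairs, the 7 pairs were not required to be consecutive genes. The 7 pairs were chosen with earlier results known, and 4 of them hold a gene of restricted expression under 1 FPKM, so the count is a description of these pairs. Several alpha genes sit in tandem pairs that arose by duplication. Gnaq, at 29.7 FPKM, was 251-fold above Gna14 at 0.119 FPKM, 47.1 kb away on chromosome 19. Gnai2 was 176-fold above Gnat1, 39.0 kb away on chromosome 9, and Gnai3 was 85.7-fold above Gnat2, 5.84 kb away on chromosome 3. Gna11 was 29.1-fold above Gna15 at a distance of 4.28 kb on chromosome 10. In each of these 4 pairs the widely expressed gene was at 7.39 FPKM or more and its more restricted relative at 1.02 FPKM or less. Among gamma genes Gng11 was 218-fold above Gngt1, 6.55 kb away on chromosome 6. Ratios to very low genes such as Gngt1 and Gnat2 are rough, since the depth is unknown. The differences were smaller for the Rgs neighbours on chromosome 1, where Rgs4 was 7.45-fold above Rgs5 (45.7 kb apart) and Rgs8 4.98-fold above Rgs16 (42.7 kb apart).

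**Figure D3:**
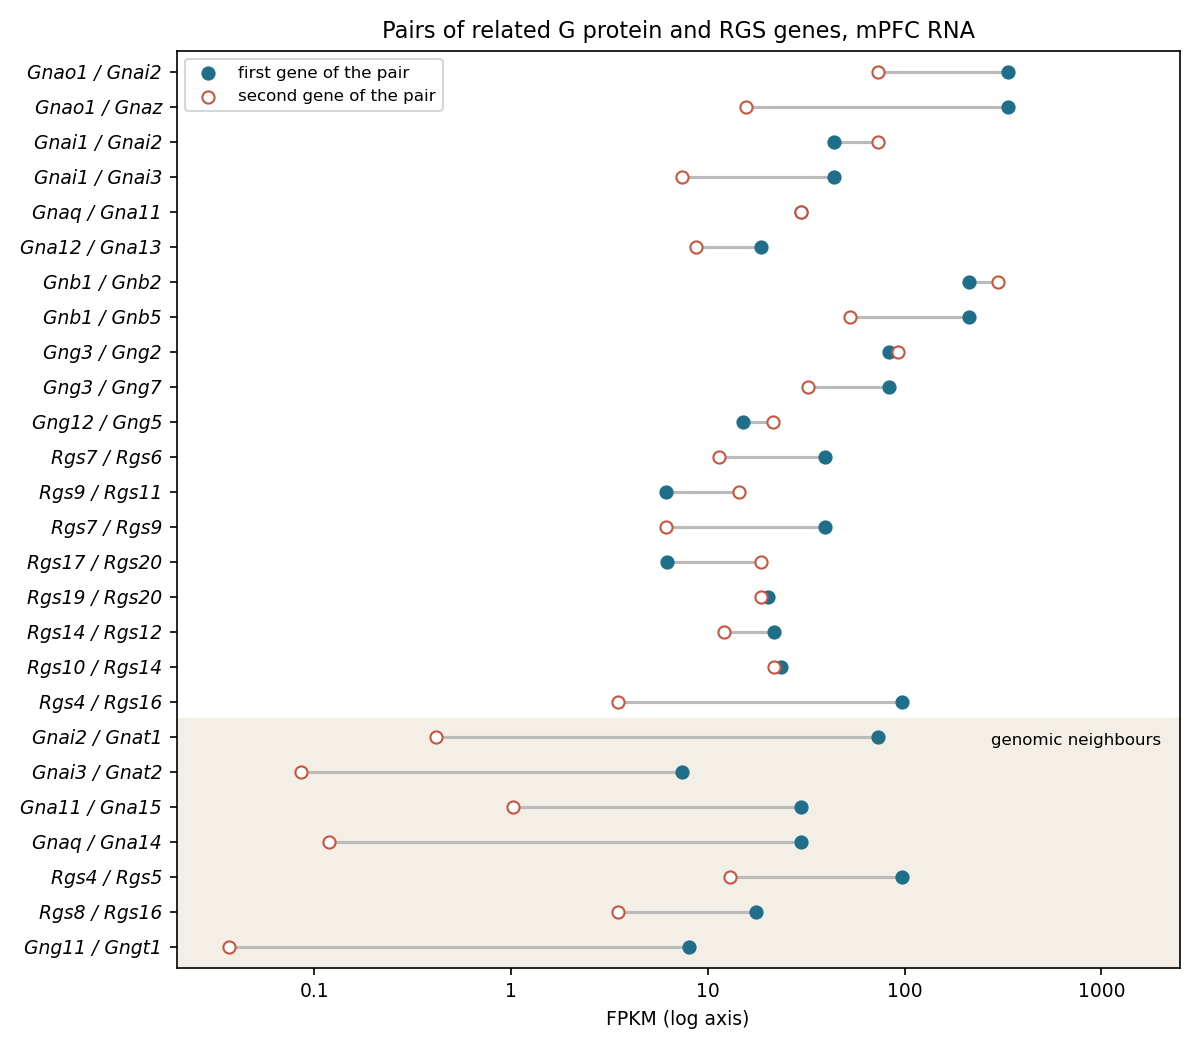
FPKM (log axis) of the first gene (filled) and the second gene (open) of each of 26 pairs in mPFC RNA, with genomic neighbours on a shaded ground. The points of Gnaq and Gna11 coincide, and the 7 neighbour pairs are all apart, from 4.98-fold for Rgs8 over Rgs16 to 251-fold for Gnaq over Gna14.

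Chromosome 1 carries 10 of the 20 Rgs genes. Of these, 6 were detected (Rgs4, Rgs7, Rgs20, Rgs8, Rgs5 and Rgs16), against 9 of the 10 on other chromosomes, and beside 58.6% of protein-coding genes. The 4 undetected genes, Rgs13, Rgs21, Rgs1 and Rgs18, lie within 638 kb, from 144137386 to 144775427, and are the only members in that interval.

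The series is about DNA methylation, and methylation in mammals is found mostly at CpG dinucleotides, so the promoter sequences of the members were examined for them. RefSeq promoter sequences of GRCm38.p6 matched 38 of the 52 members, and the 250 bases before the annotated start were read. A window was called CpG-rich at a GC content of 50% or more and a ratio of observed to expected CpG of 0.6 or more. Where a gene had several starts, the window with the most CpG was taken. The windows shown first are those of Gnao1, the highest member, and of both tandem pairs for which both windows are present and only 1 gene was detected. They are written 5′ to 3′ on the strand of the gene, with each CpG in capitals.
Gnao1, chr8:93810588-93810837, plus strand: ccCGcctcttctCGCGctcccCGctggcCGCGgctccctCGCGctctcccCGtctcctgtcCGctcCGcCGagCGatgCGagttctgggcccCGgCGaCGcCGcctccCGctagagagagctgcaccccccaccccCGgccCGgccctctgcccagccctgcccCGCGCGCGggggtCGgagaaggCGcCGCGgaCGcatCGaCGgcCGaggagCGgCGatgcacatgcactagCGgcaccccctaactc
Gnaq, chr19:16132434-16132683, plus strand: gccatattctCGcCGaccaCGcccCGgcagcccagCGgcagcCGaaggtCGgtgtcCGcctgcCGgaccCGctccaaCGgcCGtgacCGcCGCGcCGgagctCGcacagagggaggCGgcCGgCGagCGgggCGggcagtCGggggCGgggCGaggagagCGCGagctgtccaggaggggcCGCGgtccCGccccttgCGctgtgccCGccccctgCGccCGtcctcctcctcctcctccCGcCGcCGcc
Gna14, chr19:16435417-16435666, plus strand: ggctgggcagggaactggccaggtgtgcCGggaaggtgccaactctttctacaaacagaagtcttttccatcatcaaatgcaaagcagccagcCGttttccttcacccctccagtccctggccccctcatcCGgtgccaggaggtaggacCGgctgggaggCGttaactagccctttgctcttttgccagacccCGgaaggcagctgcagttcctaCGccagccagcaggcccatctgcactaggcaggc
Gnai3, chr3:108146153-108146402, minus strand: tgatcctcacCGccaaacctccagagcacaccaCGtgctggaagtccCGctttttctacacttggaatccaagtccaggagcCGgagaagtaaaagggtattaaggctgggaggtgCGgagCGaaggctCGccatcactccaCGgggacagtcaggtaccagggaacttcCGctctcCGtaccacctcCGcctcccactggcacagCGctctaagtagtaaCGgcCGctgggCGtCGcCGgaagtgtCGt
Gnat2, chr3:108092816-108093065, plus strand: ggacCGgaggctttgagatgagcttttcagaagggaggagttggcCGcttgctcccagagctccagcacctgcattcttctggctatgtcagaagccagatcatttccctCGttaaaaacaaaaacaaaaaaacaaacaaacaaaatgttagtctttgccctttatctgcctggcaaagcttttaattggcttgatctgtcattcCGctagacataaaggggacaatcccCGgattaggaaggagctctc

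The Gnao1 window holds 36 CpG and the Gnaq window 37, against 7 for Gna14. The Gnai3 window holds 18 and that of its neighbour Gnat2 5. In both tandem pairs the gene with the CpG-rich window was the detected one. These pairs were shown because only 1 gene was detected, so their order is a description. Gna11, with 38 CpG, and Gna15, with 4, show the same order, with Gna15 at 1.02 FPKM.

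Every member with a CpG-rich window was detected, 23 of 23, beside 87.5% of protein-coding genes with such a window. Of the members with a CpG-poor window 8 of 15 (53.3%) were detected, beside 34.3% of protein-coding genes. The median was 22.8 FPKM for members with CpG-rich and 1.02 FPKM for those with CpG-poor windows, against 9.13 and 0.107 FPKM for protein-coding genes. The 7 undetected members with a window, Gna14, Gnat2, Gnat3, Gng8, Gngt1, Rgs13 and Rgs21, had 0 to 7 CpG. This is a description of sequence and RNA level, since methylation was not analysed here.

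**Figure D4:**
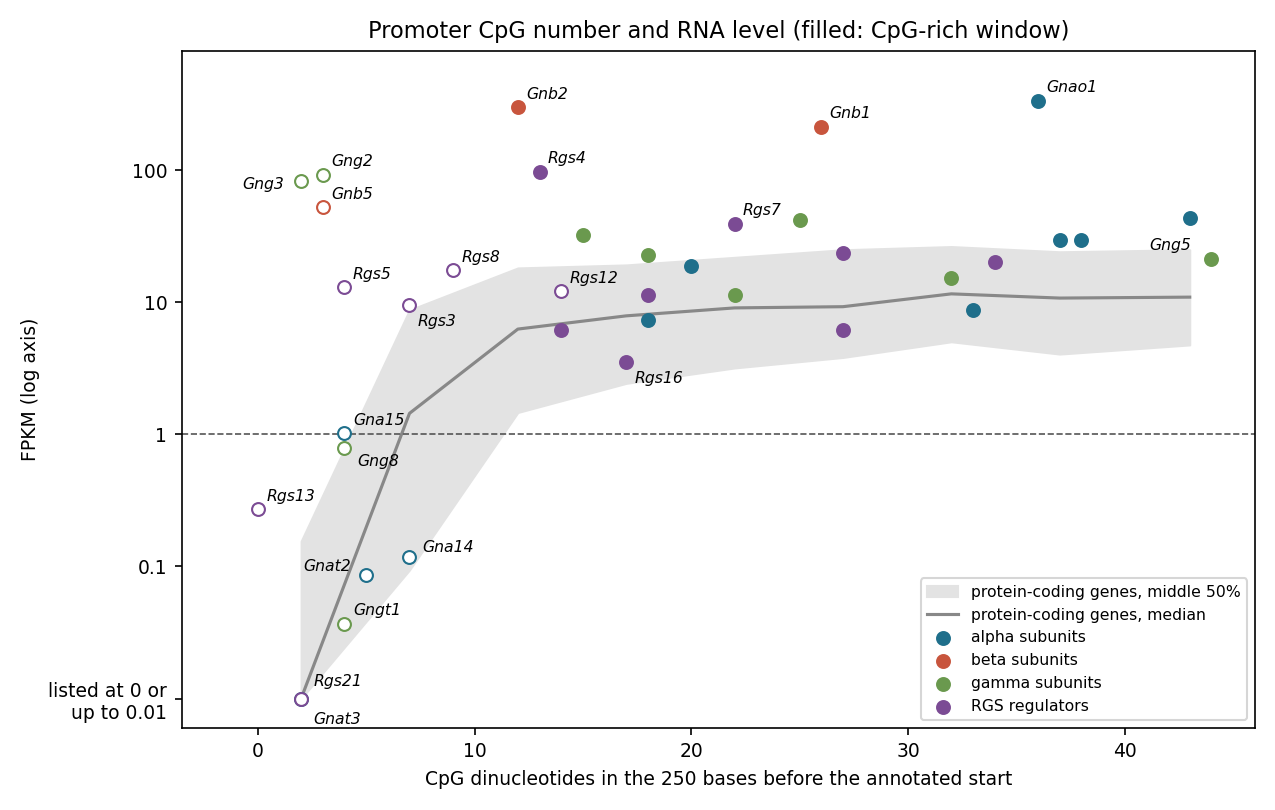
FPKM (log axis) against the number of CpG in the 250 bases before the annotated start for 38 members, filled where the window is CpG-rich, over the median and middle 50% of protein-coding genes in bins of CpG number. All 23 filled points lie above the dashed line at 1 FPKM, and Gng2, Gng3 and Gnb5 stand far above the grey band at 2 to 3 CpG. The Gng2 window lies inside its own gene, and the Gng3 value is uncertain.

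Some members were at high levels with few CpG. Gng2, Gng3 and Gnb5, at 92.0, 83.1 and 52.5 FPKM, had 3, 2 and 3 CpG in their windows. The Gng2 window lies inside its own gene and may not be the start used, and the Gng3 value is uncertain, as given below. In protein-coding genes with 0 to 4 CpG the upper quartile was 0.155 FPKM and 13.6% were detected. Rgs8, Rgs5, Rgs12 and Rgs3 were also detected with CpG-poor windows, at 17.5 to 9.49 FPKM with 4 to 14 CpG. The windows of both leading gamma genes, of Rgs4 and of the undetected Rgs13 are shown for comparison.
Gng2, chr14:19976694-19976943, minus strand: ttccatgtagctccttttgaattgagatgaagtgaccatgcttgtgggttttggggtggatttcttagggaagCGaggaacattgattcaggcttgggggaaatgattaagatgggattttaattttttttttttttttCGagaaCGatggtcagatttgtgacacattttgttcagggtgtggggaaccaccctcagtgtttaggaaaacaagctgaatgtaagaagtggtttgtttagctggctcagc
Gng3, chr19:8839247-8839496, minus strand: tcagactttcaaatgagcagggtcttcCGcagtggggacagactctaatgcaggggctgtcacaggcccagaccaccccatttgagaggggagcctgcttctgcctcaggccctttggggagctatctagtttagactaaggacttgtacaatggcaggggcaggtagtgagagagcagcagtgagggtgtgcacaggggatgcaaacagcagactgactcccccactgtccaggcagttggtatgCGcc
Rgs4, chr1:169747643-169747892, minus strand: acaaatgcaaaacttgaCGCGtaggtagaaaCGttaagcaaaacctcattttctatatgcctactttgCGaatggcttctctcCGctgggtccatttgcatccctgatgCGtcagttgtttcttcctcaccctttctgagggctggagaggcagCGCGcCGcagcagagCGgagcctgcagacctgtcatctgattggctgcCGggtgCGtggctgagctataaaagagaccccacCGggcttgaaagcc
Rgs13, chr1:144177373-144177622, minus strand: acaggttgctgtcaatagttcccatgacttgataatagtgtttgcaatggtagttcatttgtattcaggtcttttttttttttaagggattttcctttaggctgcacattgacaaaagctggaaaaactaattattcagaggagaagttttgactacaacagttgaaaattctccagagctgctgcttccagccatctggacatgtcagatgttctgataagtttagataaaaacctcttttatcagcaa

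The Rgs4 window holds 13 CpG and that of Rgs13, on the same chromosome, none. Annotated starts need not be those used in this tissue. Of the 38 windows 12, those of Gng2, Gnao1 and Gnat2 among them, lie wholly inside the annotated span of their own gene. Others, such as those of Gng4, Gna15 and Gnb2, lie partly inside it. Gng3 overlaps Bscl2 over 1780 bases of its 2.32 kb, Bscl2 stood at 41.0 FPKM, and whether reads were assigned by strand is not stated, so the Gng3 value is uncertain. Gnb4 overlaps Mfn1, at 52.3 FPKM, over 639 bases, and Gngt2 overlaps Abi3, at 3.67 FPKM, over 705 bases. Gnal overlaps Mppe1, at 8.98 FPKM, over 1750 bases and Chmp1b over 2529 bases. These values are uncertain too. In all, 8 members overlap another protein-coding gene.

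Short sequence motifs were looked for on both strands of the same windows. The TATA box letters TATAAA were in 5 of 38 members (13.2%), beside 11.4% of protein-coding genes, namely in Gnb5, Gngt1, Rgs3, Rgs4 and Rgs9. In Rgs4 they begin 31 bases before the start. The letters GGGCGG of an Sp1 site, which contain a CpG, were in 19 members (50%), beside 45.8% of protein-coding genes. CCAAT was in 8 (21.1%), beside 35.1%, and TGACG, part of the cyclic AMP response element, which also contains a CpG, in 5 (13.2%), beside 21.0%. The Rgs4 window holds the TATA, CCAAT and response element letters, the last at 2 places, 236 and 141 bases before the start. A match is a description of letters and not of a site in use.

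The proteins that work with these members were examined as 7 fixed lists of 52 genes. Their counts of detected genes stand beside 58.6% of protein-coding genes. For the R7 class, the membrane anchor gene Rgs7bp was at 30.3 FPKM and the orphan receptor gene Gpr158, which binds Rgs7, at 17.2 FPKM. Their retinal counterparts Rgs9bp and Gpr179 were at 0.0441 and 0.0334 FPKM, 688-fold and 516-fold lower. At such low values and an unknown depth these ratios are rough. All 9 genes of other proteins with an RGS or RGS-homology domain were detected, from Akap10 at 5.19 and Axin2 at 5.69 FPKM to Axin1 at 14.3, Arhgef12 at 15.3 and Snx25 at 18.1 FPKM. Of the chaperones and receptor-independent modulators 11 of 12 were detected, led by Ric8a at 28.2, Pdcl3 at 18.3 and Gpsm1 at 13.1 FPKM. Ric8a, the chaperone of i/o, q and 12/13 alpha subunits, was 3.12-fold above Ric8b, which serves the stimulatory class. Gpsm3 at 1.25 FPKM and the photoreceptor gene Pdc at 0.0157 FPKM were lowest.

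Receptor kinases and arrestins, which end signalling at the receptor, were detected in 8 of 10 cases, beside 58.6% of protein-coding genes. Grk2, listed under its older symbol Adrbk1, was highest at 140 FPKM, 8.91-fold above its paralog Grk3. The arrestin genes Arrb1 and Arrb2 were at 42.7 and 30.3 FPKM, and the retinal Arr3 and Grk1 at 0.868 and 0.0392 FPKM. Of the effectors of q class subunits, Plcb1 was at 28.5, Plcb4 at 13.2, Plcb3 at 2.83 and Plcb2 at 0.928 FPKM. Of the potassium channels opened by beta-gamma dimers, Kcnj9 was at 32.01, Kcnj3 at 28.8, Kcnj6 at 6.88 and the cardiac subunit Kcnj5 at 0.106 FPKM. Among adenylyl cyclases 8 of 9 were detected, led by Adcy1 at 70.5, Adcy2 at 34.5 and Adcy5 at 15.2 FPKM, with Adcy7 at 1.095 and Adcy4 at 0.577 FPKM lowest. The medians of the 7 lists lay between 8.001 and 17.8 FPKM, beside 13.8 FPKM for the members.

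**Figure D5:**
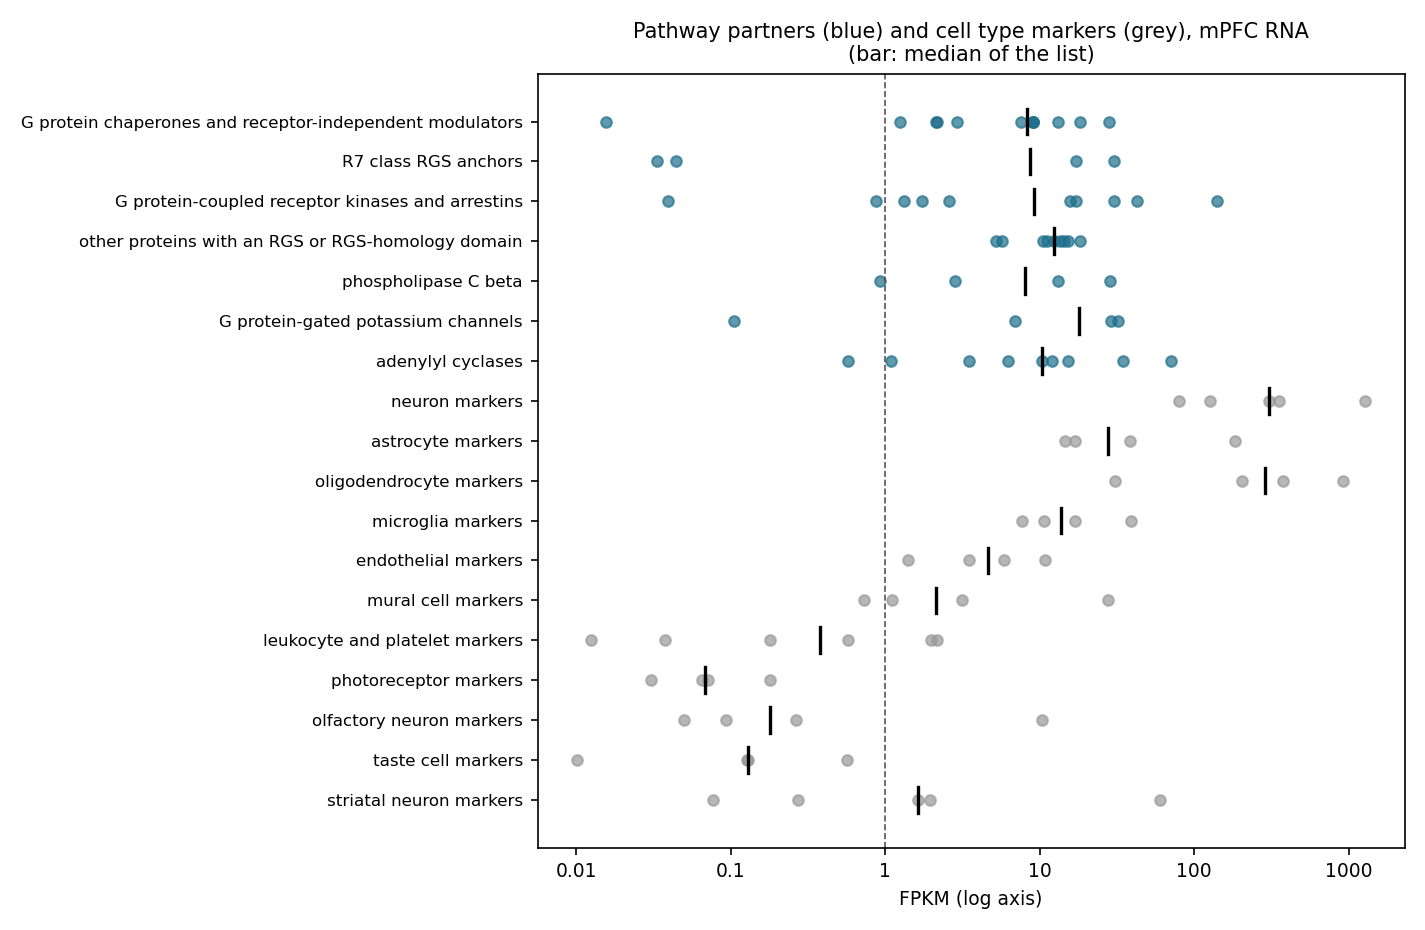
FPKM (log axis) of each gene of 7 lists of pathway partners (blue) and 11 lists of cell type markers (grey) in mPFC RNA, with a bar at the median of each list and a dashed line at 1 FPKM. The photoreceptor and taste cell markers lie left of the line, and the neuron and oligodendrocyte markers have the highest medians, 303 and 288 FPKM.

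The members of the phototransduction cascade can be read together across the classes. Gnat1, Gnat2, Gnb3 and Gngt1, with the regulators Rgs9bp, Grk1 and Pdc, were all under 0.5 FPKM, and the cone arrestin gene Arr3 was at 0.868 FPKM. Gngt2 at 3.42 FPKM, Rgs9 at 6.13 FPKM and the rod arrestin gene Sag at 1.73 FPKM were the detected genes with a known role there, besides Gnb1 and Gnb5, which are not confined to the retina.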

How the data were processed

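RNA of 1 mPFC sample was analysed, and the 2 DNA samples were not analysed here. Per the labels' protocols the libraries were made with a TruSeq RNA v2 kit. Reads were processed with CASAVA 1.8.2, TopHat and Cufflinks on mm10, per the submitters' processing notes. The sources used here do not give the roles of these tools, the annotation, the use of strand or how the 3 replicates in the design text were combined. The authors deposited FPKM values in 2 columns, identical in 46073 of 46073 rows, which were counted as 1 sample. No test was possible, and depth is unknown.

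Identifiers were matched to symbols for 45139 rows. Positions, gene classes and promoters came from RefSeq GRCm38.p6, the assembly of mm10. Pairs used log2(FPKM + 1). All members are named, with the 3 highest and 2 lowest genes of longer partner lists. A few values outside this rule (overlapping genes) were chosen after they were seen. Members, lists and pairs were chosen with earlier results of these data known, and the CpG and motif criteria after the files were seen. An Rgs gene that the rule leaves out and a planned marker are not reported here. The functions for sequences and pairs were tested on simulated data. Computation used pandas 2.3.3 and numpy 2.4.6 under Python 3.11.15, and plots matplotlib 3.10.9. Alternatives for the floor, pseudocount, scaling, summary and promoter window were computed.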

Additional observations from a re-analysis of the deposited data

How the results depend on the processing

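Of 33 alternatives computed, 20 left the result within the limits set (1.5-fold for a count, 1.1-fold for a median or percent) and 13 moved it. All counts of detected members and of pairs stayed within 1.5-fold: 39 to 42 members were detected, with Gnat1 and Gng8 passing the floor at 1.05 and 2.01 after rescaling, and 18 pairs were apart with each other pseudocount and with none, against 14 of 22 when both genes had to be detected. The geometric mean was 9.55 FPKM for alpha, 29.8 for beta, 13.5 for gamma and 7.34 for Rgs genes, against medians of 15.6, 52.5, 18.2 and 11.8 FPKM. Medians over detected members were 22.2, 133, 22.1 and 14.5 FPKM. Rescaled by 2.54 to a fixed sum without mitochondrial genes, the medians were 39.7, 133, 46.3 and 29.8, with ratios between genes unchanged by construction. The window with the fewest CpG was an alternative chosen after seeing the data. With it, 61.1% of members with CpG-poor windows were detected, beside 39.96% of protein-coding genes with such windows. Of members with CpG-rich windows 20 of 20 were detected, beside 87.3% of protein-coding genes with such windows. No member had several rows, so their sum was not run. Leaving out a library was not possible because the 2 columns are identical. No paired analysis was possible because there is 1 sample and no test. The unknown depth limits what the lowest values, those under about 0.1 FPKM, can show.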
